A study of Rattus norvegicus with 9 samples.

Results

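The 10 genes described here encode 4 vascular endothelial growth factors (Vegfa, Vegfb, Vegfc, Vegfd), the angiopoietins Angpt1 and Angpt2, the heparin-binding growth factors midkine (Mdk) and pleiotrophin (Ptn), and the neuropilins Nrp1 and Nrp2. They were chosen by name, with earlier results of these data known. A gene was read from probe sets annotated with its symbol and no other, and the brightest over the 9 arrays stood for it. All 10 were measured, by 13 of the 31042 probe sets tested, among 14217 genes in all. Vegfa, Nrp1 and Nrp2 had a second probe set. The measurements come from lung fibroblasts of Rattus norvegicus pups at postnatal day 2 (saccular stage, before septation), day 7 (alveolar stage, septation under way) and day 21 (septation ended). In septation, new walls grow into the air spaces of the newborn lung and partition them into alveoli. The labels give no strain, sex, genotype or treatment. Cells of littermates were pooled, 5 pups for a day 2 sample and 4 for a day 7 or day 21 sample, and each day had 3 samples, from litters numbered 1 to 3. No sorting of cells is described beyond their adherence to plastic.

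VEGF ligands are secreted by cells outside the vessel wall and bind receptor tyrosine kinases of endothelial cells. Vegfa acts mainly through Kdr on blood vessels, with Flt1 as a decoy, and Vegfc and Vegfd act through Flt4, above all on lymphatic vessels. Angpt1, made by mesenchymal and mural cells, activates the receptor Tek and stabilises vessels, and Angpt2, best known as a product of endothelial cells, opposes it in many settings. Midkine and pleiotrophin are closely related factors of developing tissues that bind heparan sulphate, Ptprz1 and Alk. Neuropilins are co-receptors that pair with VEGF receptors for VEGF and with plexins for class 3 semaphorins. In the growing lung, fibroblasts lie beside the capillaries of the forming septa.

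Median intensities lay between 37.9 and 50.4 on the 9 arrays. Across probe sets, Pearson correlations were 0.976 to 0.988 within a day and 0.880 to 0.974 between days. The label of fibroblast was checked on 12 marker genes, with summed intensities of 36739 to 47061 on day 2, 39714 to 44433 on day 7 and 34642 to 43944 on day 21. The collagen genes Col1a1 and Col3a1 averaged log2 12.21 to 13.18 on each day. Of the 12, 1 rose and 4 fell at day 21 against day 7, by limma at an adjusted p under 0.05. Of all 14217 genes, 13.7% rose and 24.4% fell there. The sum of 15 macrophage markers was 20062 to 22709 on day 2, 6872 to 10971 on day 7 and 20903 to 30519 on day 21. For 15 endothelial markers it was 1070 to 1393, 1574 to 1961 and 784 to 1023 on those days, and for 10 pericyte markers 1349 to 1855, 2717 to 3124 and 1275 to 1597. For 14 alveolar epithelial markers it was 1727 to 2345, 1872 to 2156 and 1461 to 1911. No macrophage, endothelial or pericyte marker stayed below log2 4.25 on all 9 arrays, which is the 25th percentile of all values and is called the low end here. In such mixed preparations, fewer cells of a type and less RNA per cell cannot be told apart.

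**Figure D1:**
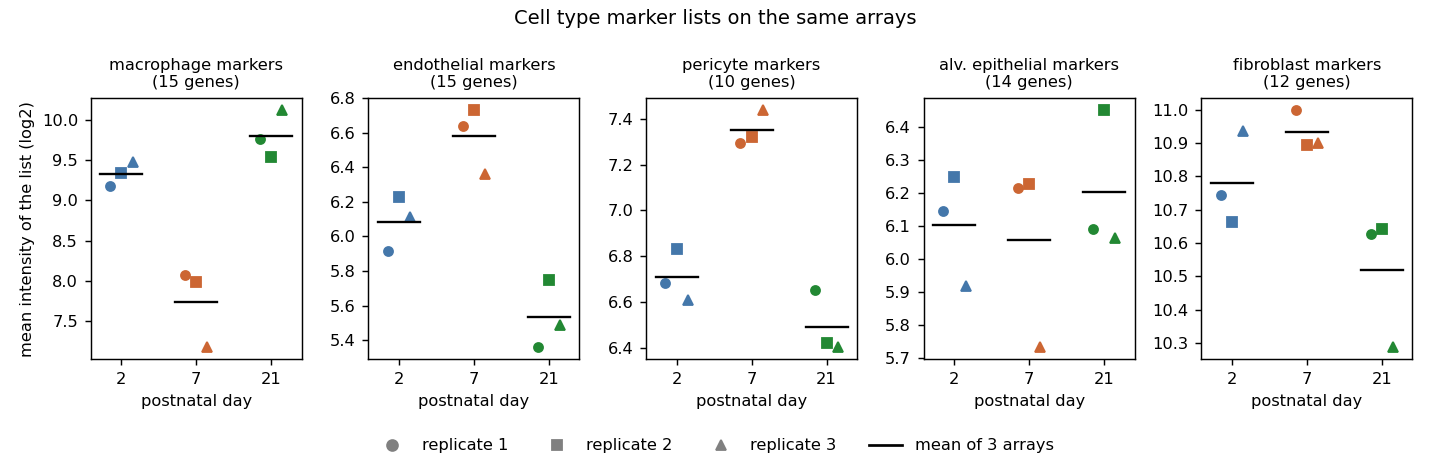
Mean log2 intensity of 5 marker lists on each array, by postnatal day, with the number of genes in each list given above its panel and each panel on its own scale. Symbols are replicates and bars are means of 3 arrays. Macrophage markers were lowest on day 7, and endothelial and pericyte markers were highest on day 7. Fibroblast markers were lowest on day 21.

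The promoters of 3 genes whose levels fell most among the members with a promoter sequence are shown first, since their expression changes below are the largest that could be set beside sequence. They are the 250 bases before the annotated start, 5′ to 3′, from RefSeq, build GRCr8. Of the 10 genes, 7 matched the RefSeq promoter table, and Mdk, Angpt1 and Angpt2 did not. Capitals mark matches to the motifs searched, on either strand: the TATA box TATAAA, the GC box GGGCGG, the AP-1 site TGAGTCA and the hypoxia response core ACGTG or GCGTG. No matches overlapped.
Vegfd, chrX:33739893-33740142, - strand: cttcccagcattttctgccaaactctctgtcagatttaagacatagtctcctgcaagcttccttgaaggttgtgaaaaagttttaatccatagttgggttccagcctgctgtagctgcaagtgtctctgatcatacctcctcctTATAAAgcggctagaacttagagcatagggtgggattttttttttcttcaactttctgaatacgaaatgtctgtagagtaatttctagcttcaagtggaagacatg
Ptn, chr4:66342333-66342582, - strand: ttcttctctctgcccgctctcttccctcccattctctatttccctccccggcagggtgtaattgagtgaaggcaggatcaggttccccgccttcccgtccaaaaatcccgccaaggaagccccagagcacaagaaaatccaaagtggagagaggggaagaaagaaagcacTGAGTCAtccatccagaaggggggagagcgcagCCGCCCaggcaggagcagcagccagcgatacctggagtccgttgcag
Vegfa, chr9:22452604-22452853, + strand: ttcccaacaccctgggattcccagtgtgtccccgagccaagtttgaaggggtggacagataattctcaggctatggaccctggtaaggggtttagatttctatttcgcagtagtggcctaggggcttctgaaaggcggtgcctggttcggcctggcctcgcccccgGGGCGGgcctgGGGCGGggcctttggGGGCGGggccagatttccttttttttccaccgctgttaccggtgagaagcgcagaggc
The Vegfd window held TATAAA at position -106 relative to the start and was 40.8% G and C, below the 25th percentile of all 33469 promoter windows (44.0%). TATAAA was in 12.9% of all windows. The Ptn window held TGAGTCA at position -80, a match found in 4.05% of windows, and 1 GC box on the reverse strand (capitals CCGCCC), and was 57.6% G and C. The Vegfa window, shown for the first of 2 annotated starts, held 3 GC boxes and was 60.4% G and C, and a GC box was in 30.5% of windows. Neither hypoxia core was in these 3 windows, while 36.7% of all windows held 1 or both. Bases further upstream were not searched, so a core there would not be seen. Of the windows not printed, those of Vegfb, Nrp1 and Nrp2 held 1 match each to GCGTG, and those of Vegfc and of the second Vegfa start held none. The window of the second Vegfa start held no match to the other motifs either. These matches describe letters and were not tested as binding sites.

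Among the 10 genes, as among all genes, more were called in each comparison with day 21 than at day 7 against day 2. At day 21 against day 7, Vegfd was 14.5-fold lower, Mdk 13.0-fold lower, Ptn 4.37-fold lower and Vegfa 2.38-fold lower, while Nrp2 was 2.60-fold higher and Nrp1 and Angpt2 were both 1.73-fold higher. Of the 10 genes 3 rose and 4 fell, against 13.7% of all 14217 genes called higher and 24.4% called lower (38.1% in all) by limma at an adjusted p under 0.05. At day 7 against day 2, Mdk, Vegfd and Angpt2 rose and Nrp2 fell, which is 3 and 1 of 10, against 7.02% and 4.41% of all genes (11.4% in all). At day 21 against day 2, 3 rose and 5 fell, against 8.80% and 15.3% of all genes (24.1% in all). The median log2 change of the 10 genes was 0.06, -0.35 and -0.66 in these comparisons in the order day 7 against day 2, day 21 against day 7 and day 21 against day 2, and that of all genes was 0.07, -0.01 and 0.02. The median size of the change regardless of sign was 0.33, 1.02 and 1.09 for the 10 genes and 0.22, 0.38 and 0.32 for all genes. Any pair of these comparisons shares the arrays of a day, so their changes are not independent of each other. Centring each array on its median moved the median change of all genes at day 21 against day 7 by 0.11 and left the same 7 members called there in the same directions. It also moved the share of higher calls among all called genes at day 7 against day 2 to 41.0%, against 61.4% as deposited, and at day 21 against day 7 to 46.5%, against 36.0%. The array medians of the deposited values differed, as given above. A quantile normalization of these values moved that share to 47.9% at day 21 against day 7 and to 49.3%, against 36.5%, at day 21 against day 2.

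**Figure D2:**
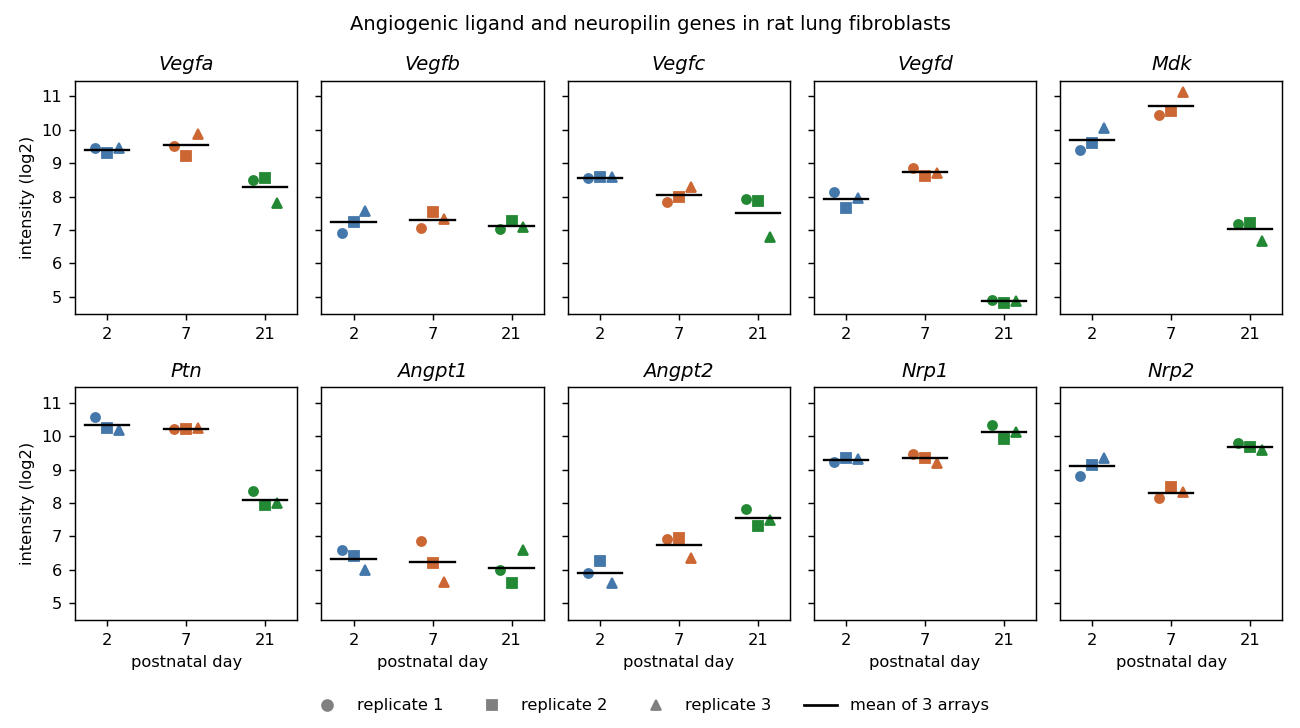
Log2 intensity of the 10 genes on each of the 9 arrays, by postnatal day. Symbols are replicates and bars are means of 3 arrays. Vegfd, Mdk and Ptn were lowest on day 21, Angpt2 was highest on day 21, and Nrp2 was lowest on day 7.

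Vegfd, a ligand of the lymphatic VEGF receptor Flt4 whose processed form also binds Kdr in humans, gave the largest change of the 10. Its log2 intensity was 8.13, 7.65 and 7.96 on the day 2 arrays, 8.85, 8.61 and 8.71 on the day 7 arrays and 4.91, 4.80 and 4.88 on the day 21 arrays (replicates 1, 2 and 3 in this and later lists). The 3 days did not overlap, and the day 21 arrays lay close together, above the low end of 4.25 but near it. It was 1.75-fold higher at day 7 than at day 2 (limma log2 change 0.81 ± 0.16, SE, with n = 3 on each day, adjusted p = 0.00917). It was 14.5-fold lower at day 21 than at day 7 (log2 change -3.86 ± 0.16, adjusted p = 8.01e-08) and 8.29-fold lower than at day 2 (-3.05 ± 0.16, adjusted p = 1.31e-06). Among all 14217 genes, 18 had a larger fall between day 7 and day 21. These 3 calls were kept in every alternative run, each array left out included.

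Vegfa, the principal angiogenic VEGF, was at log2 9.45, 9.31 and 9.46 on day 2, 9.53, 9.21 and 9.88 on day 7 and 8.51, 8.55 and 7.81 on day 21. Days 2 and 7 overlapped, and every day 21 array was below both. It was 2.38-fold lower at day 21 than at day 7 (log2 change -1.25 ± 0.22, adjusted p = 0.00106) and 2.18-fold lower than at day 2 (-1.12 ± 0.22, adjusted p = 0.00484). At day 7 against day 2 its change was 0.13 (95% interval -0.36 to 0.62, adjusted p = 0.818). A second, dimmer Vegfa probe set also had its lowest mean on day 21, at log2 7.11 against 7.72 on day 2 and 7.55 on day 7, but it was not called in any comparison. Its change at day 21 against day 7 was -0.44 ± 0.21 (adjusted p = 0.155) and at day 21 against day 2 -0.61 ± 0.21 (adjusted p = 0.0671). The 2 probe sets thus pointed the same way at day 21 with different sizes, and which transcripts each detects was not analysed here.

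Vegfc, the other ligand of Flt4, was at log2 8.54, 8.58 and 8.58 on day 2, 7.83, 7.99 and 8.29 on day 7 and 7.92, 7.85 and 6.78 on day 21. The day 2 arrays were above all others, days 7 and 21 overlapped, and day 21 replicate 3 was far below the other 2 of its day. It was 2.07-fold lower at day 21 than at day 2 (log2 change -1.05 ± 0.26, adjusted p = 0.0166). Without day 21 replicate 3 that change was -0.68 (adjusted p = 0.0270), and without day 2 replicate 2 the call was lost (adjusted p = 0.0522). The changes over the single intervals, -0.53 (adjusted p = 0.276) for day 7 against day 2 and -0.52 (adjusted p = 0.173) for day 21 against day 7, did not pass, and without day 21 replicate 3 the second was -0.15 (adjusted p = 0.622).

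Vegfb, a ligand of Flt1 linked to fatty acid uptake and cell survival, passed in no comparison. It was at log2 6.90, 7.25 and 7.55 on day 2, 7.05, 7.53 and 7.33 on day 7 and 7.03, 7.25 and 7.07 on day 21. The days overlapped throughout. The 95% interval of its change was -0.35 to 0.49 for day 7 against day 2, -0.60 to 0.24 for day 21 against day 7 and -0.53 to 0.31 for day 21 against day 2.

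Midkine, which promotes growth and migration of many cell types in embryonic tissues, had a profile like that of Vegfd. Mdk was at log2 9.40, 9.61 and 10.04 on day 2, 10.45, 10.56 and 11.14 on day 7 and 7.18, 7.20 and 6.66 on day 21. The 3 days did not overlap, with day 7 highest and day 21 lowest. It was 2.04-fold higher at day 7 than at day 2 (log2 change 1.03 ± 0.24, adjusted p = 0.0188). Leaving out day 2 replicate 1, day 2 replicate 2 or day 7 replicate 3 ended that call, at adjusted p of 0.0639, 0.0688 and 0.0603. It was 13.0-fold lower at day 21 than at day 7 (log2 change -3.70 ± 0.24, adjusted p = 7.81e-07), a fall exceeded by 25 of all genes, and 6.36-fold lower than at day 2 (-2.67 ± 0.24, adjusted p = 2.21e-05).

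Pleiotrophin, its relative, did not pass over the first interval and fell over the second. Ptn was at log2 10.59, 10.26 and 10.19 on day 2, 10.22, 10.20 and 10.25 on day 7 and 8.37, 7.93 and 7.99 on day 21. Days 2 and 7 overlapped, with a change of -0.12 (95% interval -0.49 to 0.25, adjusted p = 0.761), and day 21 was below both. It was 4.37-fold lower at day 21 than at day 7 (log2 change -2.13 ± 0.17, adjusted p = 3.32e-06) and 4.76-fold lower than at day 2 (-2.25 ± 0.17, adjusted p = 7.00e-06).

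Angpt2 was the member that rose over both intervals. Its log2 intensity was 5.89, 6.25 and 5.59 on day 2, 6.93, 6.96 and 6.35 on day 7 and 7.81, 7.32 and 7.48 on day 21. The days did not overlap, although day 7 replicate 3 lay close above the highest day 2 array. It was 1.79-fold higher at day 7 than at day 2 (log2 change 0.84 ± 0.22, adjusted p = 0.0389), 1.73-fold higher at day 21 than at day 7 (0.79 ± 0.22, adjusted p = 0.0184) and 3.08-fold higher at day 21 than at day 2 (1.62 ± 0.22, adjusted p = 0.000489). The first of these calls was lost after a quantile normalization (adjusted p = 0.0510), with arrays centred on their median (0.0687) and with the arrays of days 2 and 7 alone (0.0570). The same call was lost without day 2 replicate 1 (0.0870), day 2 replicate 3 (0.139), day 7 replicate 1 (0.129) or day 7 replicate 2 (0.137). The second ended without day 7 replicate 3 or day 21 replicate 1, at adjusted p of 0.0728 and 0.0765, and the third was kept in every alternative run.

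Angpt1, the agonist of Tek, varied more between litters than between days. It was at log2 6.59, 6.41 and 5.99 on day 2, 6.86, 6.20 and 5.62 on day 7 and 5.98, 5.59 and 6.60 on day 21, and the days overlapped. Its change was -0.10 (95% interval -0.80 to 0.59) at day 7 against day 2, -0.17 (-0.86 to 0.52) at day 21 against day 7 and -0.27 (-0.96 to 0.42) at day 21 against day 2, with adjusted p of 0.911, 0.747 and 0.590. The SD between litters was 0.31, 0.62 and 0.51 on days 2, 7 and 21.

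Nrp1, a receptor of Vegfa and of semaphorin 3A, was at log2 9.22, 9.34 and 9.32 on day 2, 9.46, 9.34 and 9.21 on day 7 and 10.34, 9.93 and 10.11 on day 21. Days 2 and 7 overlapped and every day 21 array was higher. It was 1.73-fold higher at day 21 than at day 7 (log2 change 0.79 ± 0.15, adjusted p = 0.00188) and 1.78-fold higher than at day 2 (0.84 ± 0.15, adjusted p = 0.00313). Its second probe set was called for day 21 against day 2 (0.76 ± 0.19, adjusted p = 0.0169) but not for day 21 against day 7 (0.41 ± 0.19, adjusted p = 0.144). Its values were 9.28, 9.14 and 8.88 on day 2, 9.82, 9.44 and 9.11 on day 7 and 9.92, 9.73 and 9.95 on day 21, so that day 7 lay between the other days and overlapped with both.

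Nrp2, which binds Vegfc, Vegfd and semaphorin 3F, was lowest on day 7. It was at log2 8.80, 9.13 and 9.36 on day 2, 8.14, 8.46 and 8.33 on day 7 and 9.79, 9.68 and 9.60 on day 21, and the days did not overlap. It was 1.73-fold lower at day 7 than at day 2 (log2 change -0.79 ± 0.17, adjusted p = 0.0155) and 2.60-fold higher at day 21 than at day 7 (1.38 ± 0.17, adjusted p = 8.32e-05). Between days 21 and 2 it was 1.51-fold higher at day 21 (0.59 ± 0.17, adjusted p = 0.0326). The first call needed day 2 replicates 2 and 3 and day 7 replicate 1, without which the adjusted p was 0.0577, 0.0622 and 0.0650. The last was lost with arrays centred on their median (adjusted p = 0.0759), with the mean of both Nrp2 probe sets (0.18, adjusted p = 0.358) and without any single array of day 21 or replicate 1 or 2 of day 2 (adjusted p = 0.0568 to 0.120). With the mean of both probe sets the change at day 21 against day 7 was 0.80 and still called (adjusted p = 0.000509). The second probe set averaged log2 4.33, 3.86 and 4.09 on days 2, 7 and 21, close to or below the low end.

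The order of days in Nrp2 was also that of the macrophage markers. Of 15 measured, 10 fell and 0 rose at day 7 against day 2, against 4.41% and 7.02% of all genes. At day 21 against day 7, 15 of 15 rose, against 13.7% of all genes. The median log2 changes were -1.51 and 2.01. At day 21 against day 2, 4 rose, against 8.80% of all genes, and 11 did not pass. The summed levels given above for the 15 markers were lowest on day 7, as was Nrp2, and on neither measure did day 7 overlap with another day. The part of macrophages in the values of Nrp2 was not tested.

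**Figure D3:**
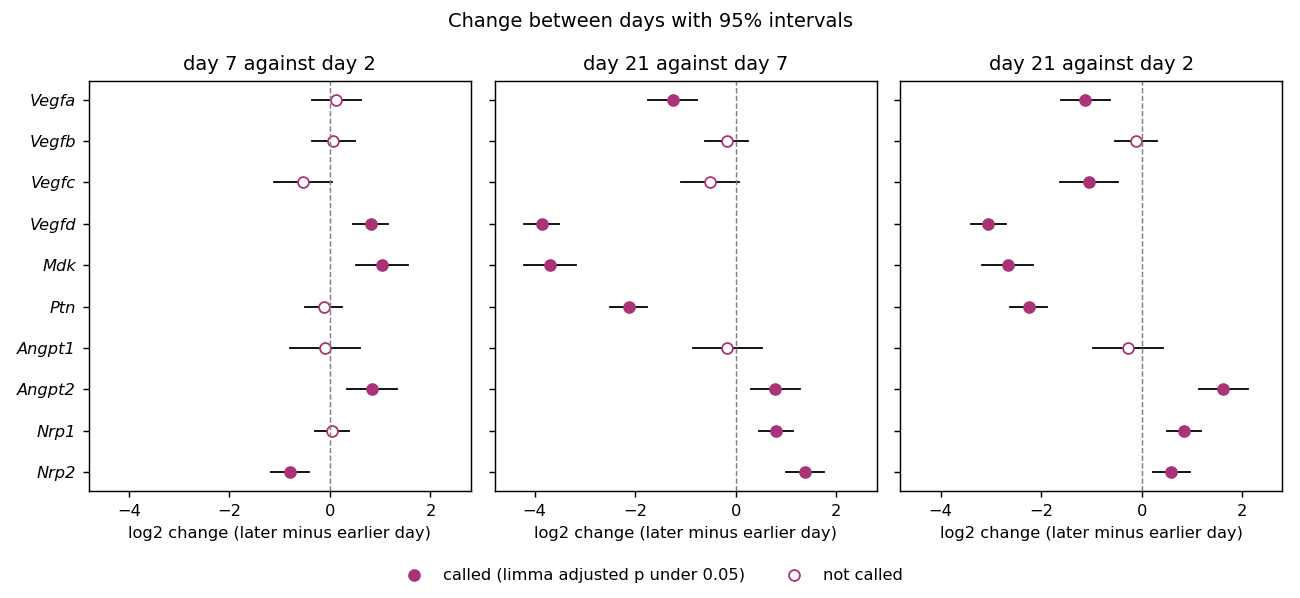
Log2 change of each gene (later minus earlier day) with its 95% interval from limma, in the 3 comparisons. Filled points passed an adjusted p of 0.05 and open points did not. Vegfd, Mdk and Ptn had the largest falls to day 21, and Angpt2 the largest rise at day 21 against day 2.

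Members with related or opposed roles were compared by their difference in log2 intensity within each array, which removes what an array shares. A difference that shifts over the days means that the pair changed by unequal amounts, while its size at one day has no meaning across probe sets. The 4 pairs were tested by an exact permutation test of the F statistic over all 1680 assignments of 9 arrays to 3 days, for which 0.00357 is the smallest p. The pairs use the same values as the changes of single members above, so their p-values are not separate support for those changes. Members were chosen with earlier results of these data known, and the adjustment covers these 4 pairs and no other pairs of members. Angpt1 minus Angpt2 was 0.42 ± 0.27 on day 2, -0.52 ± 0.39 on day 7 and -1.48 ± 0.52 on day 21 (SD, n = 3; exact p = 0.00357, adjusted over 4 pairs p = 0.0143). Its mean was lower on each later day. The p of each pair is for any difference among the 3 days, and single steps were not tested. Mdk minus Ptn was -0.66 ± 0.52, 0.49 ± 0.35 and -1.08 ± 0.31 on the same days (exact p = 0.0107, adjusted p = 0.0143). The day 7 arrays, at 0.23, 0.35 and 0.89, were above all the others. Without day 7 replicate 3 this pair stood at an adjusted p of 0.050, which no longer passed.

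Nrp1 minus Nrp2 was 0.19 ± 0.23, 1.02 ± 0.26 and 0.44 ± 0.16 on days 2, 7 and 21 (exact p = 0.00714, adjusted p = 0.0143). The day 7 arrays, at 1.32, 0.87 and 0.88, were above all the others. Vegfa minus Vegfc was 0.84 ± 0.09, 1.50 ± 0.25 and 0.77 ± 0.23 (exact p = 0.0214, adjusted p = 0.0214), again highest on the 3 day 7 arrays. With the mean of both Vegfa probe sets in place of the brighter one it did not pass (adjusted p = 0.15), nor did it without day 21 replicate 1 (adjusted p = 0.0679).

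**Figure D4:**
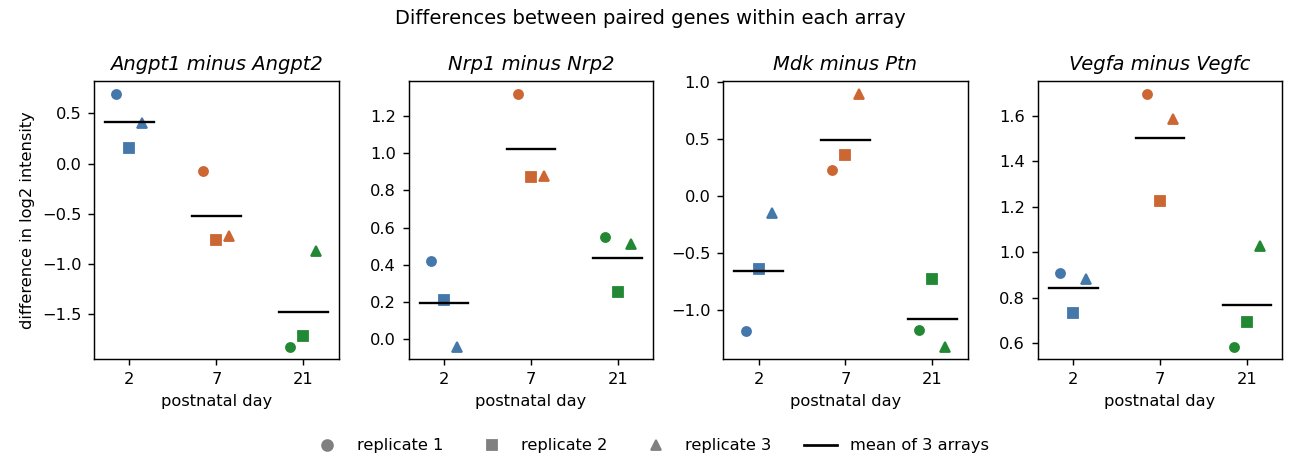
Difference in log2 intensity between 2 genes on the same array, by postnatal day, each panel on its own scale. Symbols are replicates and bars are means of 3 arrays. Angpt1 minus Angpt2 was lower on each later day, and the other 3 differences were highest on day 7.

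Receptors of these ligands were read on the same arrays, from lists chosen by function. Of 6 receptors and receptor partners of VEGF and angiopoietins, 5 fell at day 21 against day 7 and 1 did not pass, while 24.4% of all genes fell. The median log2 change was -1.15 against -0.01 for all genes. Kdr, the main signalling receptor of Vegfa, was at log2 7.15, 7.47 and 6.93 on day 2, 8.26, 7.99 and 7.56 on day 7 and 6.59, 6.79 and 5.82 on day 21. The day 7 arrays were the highest and the day 21 arrays the lowest, without overlap. It was 2.91-fold lower at day 21 than at day 7 (log2 change -1.54 ± 0.26, adjusted p = 0.000773), and its day 7 against day 2 change of 0.75 did not pass (adjusted p = 0.107). Flt1 was at log2 6.86, 6.41 and 6.43 on day 2, 6.52, 6.46 and 6.54 on day 7 and 5.06, 5.54 and 5.20 on day 21, lowest on the 3 day 21 arrays. It was 2.37-fold lower at day 21 than at day 7 (-1.24 ± 0.18, adjusted p = 0.000204).

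Tek, the angiopoietin receptor, was at log2 5.94, 6.02 and 6.04 on day 2, 6.53, 6.38 and 6.28 on day 7 and 4.95, 5.69 and 5.40 on day 21. All day 21 arrays were below the others, with a change of -1.05 ± 0.19 at day 21 against day 7 (adjusted p = 0.00101). Tie1, its orphan relative, changed by -0.82 ± 0.27 (adjusted p = 0.0366) and Ptprb, the phosphatase that restrains Tek, by -1.39 ± 0.19 (adjusted p = 0.000156) in the same comparison. Flt4, the receptor of Vegfc and Vegfd, averaged log2 5.11, 5.20 and 5.30 on days 2, 7 and 21, and its change of 0.10 at day 21 against day 7 did not pass (adjusted p = 0.769). At day 7 against day 2 limma called 0 of the 6 (1 at an unadjusted p under 0.05), and 1 without day 21 replicate 3. Of the 6, 3 fell at day 21 against day 2, against 15.3% of all genes, and 5 were called without day 21 replicate 2.

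Endothelial markers were read beside these receptors. Of 15 measured, 3 rose and 0 fell at day 7 against day 2, against 7.02% and 4.41% of all genes. At day 21 against day 7, 0 rose and 7 fell, against 13.7% and 24.4%. The median log2 changes were 0.51 and -0.47. The 3 rises were reduced to 1 without day 2 replicate 3, day 7 replicate 1 or day 7 replicate 2. At day 21 against day 2, 1 rose and 6 fell, against 8.80% and 15.3%. Emcn, a sialomucin of capillary and venous endothelium, averaged log2 5.79, 6.93 and 4.23 on days 2, 7 and 21, the last below the low end of 4.25. Tmem100 averaged 6.59, 7.65 and 4.18, the last also below the low end, and Plvap, of fenestrated endothelium, 7.27, 7.80 and 5.80. Vwf, the von Willebrand factor, ran the other way, at 5.07, 5.67 and 6.15, and was 2.12-fold higher at day 21 than at day 2 (adjusted p = 0.00882). Angpt2 was higher on each day 21 array than on any other, and Vwf also had its highest mean on day 21. The summed endothelial markers were lowest on day 21. Of 6 lymphatic endothelial markers 1 rose and 2 fell at day 21 against day 7, against 13.7% and 24.4% of all genes. Of 10 pericyte markers measured, 3 rose at day 7 against day 2 (1 without day 7 replicate 3), against 7.02% of all genes. At day 21 against day 7, 1 rose and 7 fell, against 13.7% and 24.4%. Mdk and Vegfd had the same order of days as the mean level of both lists, highest on day 7 and lowest on day 21. The part of endothelial cells and pericytes in the values of the receptors, Angpt2, Mdk and Vegfd was not tested.

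**Figure D5:**
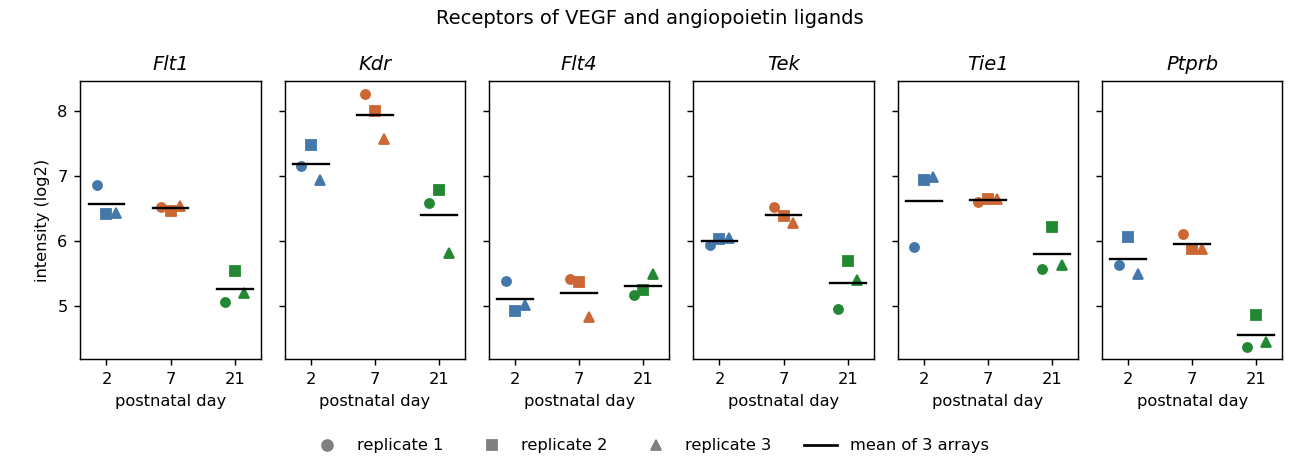
Log2 intensity of 6 receptors and receptor partners of VEGF and angiopoietin ligands on each array, by postnatal day. Symbols are replicates and bars are means of 3 arrays. Flt1, Kdr, Tek and Ptprb were lower on the 3 day 21 arrays than on any other, while Flt4 stayed between log2 4.83 and 5.49.

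Partners of midkine and pleiotrophin were read next. Of 9 measured, limma called 0 at day 7 against day 2, with 3 at an unadjusted p under 0.05. After a quantile normalization or without day 2 replicate 1, 1 was called there. At day 21 against day 7, when 38.1% of all genes were called, 2 rose and 2 fell. Ptprz1, the receptor phosphatase bound by both ligands, was at log2 5.66, 5.53 and 5.21 on day 2, 5.44, 5.25 and 5.63 on day 7 and 3.34, 3.85 and 3.14 on day 21. Days 2 and 7 overlapped, and all day 21 arrays were below the low end of 4.25, where background bounds the size of a fall (log2 change -2.00 ± 0.21 at day 21 against day 7, adjusted p = 2.08e-05). Gpc2, a heparan sulphate proteoglycan that binds midkine, averaged log2 5.61, 6.18 and 4.01 on days 2, 7 and 21 and was 4.50-fold lower at day 21 than at day 7 (adjusted p = 8.99e-05), with a day 21 mean below the low end. Sdc4, a syndecan, was 1.60-fold higher at day 21 than at day 7 (log2 change 0.68 ± 0.16, adjusted p = 0.00631). Sdc1, another syndecan, rose by 0.74 ± 0.25 (adjusted p = 0.0389), a call lost with the mean of its probe sets (0.0630) and without any single one of 5 arrays (adjusted p = 0.0515 to 0.136): day 2 replicate 2, day 7 replicates 1 and 3, and day 21 replicates 1 and 2. The kinase receptor Alk averaged log2 4.81, 5.00 and 5.08 and was not called, and neither was Ncl, a surface and nucleolar binding protein, at 10.81, 10.75 and 10.80.

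Of 13 plexins, class 3 semaphorins and other partners of neuropilins, limma called 0 at day 7 against day 2 (5 at an unadjusted p under 0.05), against 11.4% of all genes. At day 21 against day 7, 1 fell, against 24.4% of all genes. At day 21 against day 2, 3 rose and 2 fell, against 8.80% and 15.3%. Sema3g, a ligand of Nrp2, was at log2 5.34, 5.74 and 5.25 on day 2, 6.29, 6.01 and 5.79 on day 7 and 3.81, 4.51 and 4.36 on day 21. The days did not overlap, and the day 21 level reached the low end (3.48-fold lower than at day 7, log2 change -1.80 ± 0.22, adjusted p = 6.30e-05). Sema3d was 2.69-fold lower at day 21 than at day 2 (adjusted p = 0.00678). Higher at day 21 than at day 2 were Plxna4 (log2 change 1.00 ± 0.23, adjusted p = 0.00947), a co-receptor for semaphorin 3A, and Sema3c (0.71 ± 0.19, adjusted p = 0.0233). The number called at day 21 against day 7 was 3 of 13 after a quantile normalization and 2 without day 7 replicate 3. For day 21 against day 2 it was 3 without day 21 replicate 2.

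Genes of oxygen sensing, a pathway that controls Vegfa transcription in many cells, were read in 1 list with other targets of hypoxia. Genes of this list were called in both directions. Of 17 measured, 2 rose and 4 fell at day 7 against day 2, against 7.02% and 4.41% of all genes, and 5 rose and 3 fell at day 21 against day 7, against 13.7% and 24.4%. Hif1a, the hypoxia-inducible alpha subunit, averaged log2 10.94, 10.19 and 11.30 on days 2, 7 and 21, with a rise of 1.10 ± 0.14 at day 21 against day 7 (adjusted p = 0.000101). Epas1, the second alpha subunit, ran the other way, at log2 10.16, 11.14 and 9.20, and fell by 1.94 ± 0.23 on the log2 scale at day 21 against day 7 (adjusted p = 5.05e-05). Vegfa, like Epas1, was lowest on day 21. At day 7 against day 2 Vegfa changed by 0.13 (limma adjusted p = 0.818), and a link between the 2 genes was not tested. Epas1 had the same order of days as the mean level of the endothelial and pericyte lists. The part of those cells in its values was not tested. Slc2a1, the glucose transporter induced by hypoxia, was 3.29-fold higher at day 21 than at day 7 (log2 change 1.72 ± 0.16, adjusted p = 8.32e-06), and Ndrg1 was 2.72-fold higher (adjusted p = 1.67e-05). Slc2a1, Hif1a and Ndrg1 were each lowest on day 7, as the macrophage markers were, and the part of macrophages in them was not tested. The 6 calls at day 7 against day 2 became 3 without day 2 replicate 2, and 2 without day 2 replicate 3 or without day 7 replicate 1.

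The genes whose log2 profile over the 9 arrays was most like that of a member were found by Pearson correlation among 12037 genes at or above the low end. The 9 points fall into 3 days, so for members whose days lay apart a high value mostly reflects the same order and spacing of days. For Vegfb and Angpt1, whose days overlapped in each comparison, it also reflects variation between litters. For Vegfd they were Zfp423 (r = 0.996), a zinc finger transcription factor, and the amino acid transporter Slc38a5 (r = 0.995). For Mdk they were Fxyd6 (r = 0.996) and Pfas (r = 0.995), an enzyme of purine synthesis. Ptn was most like Zfp189 (r = 0.990) and Lpar4 (r = 0.990), a lysophosphatidic acid receptor, and Vegfa most like the aggrecanase Adamts4 (r = 0.994) and the DNA demethylase Tet2 (r = 0.993). Nrp1 was most like the chemokine Ccl11 (r = 0.987) and the sorting receptor Sorl1 (r = 0.985), and Nrp2 most like Glmp (r = 0.988), a lysosomal membrane protein, and Lpxn (r = 0.985), an adaptor of leukocytes. For Angpt2 the nearest were Mamdc2 (r = 0.968) and Cyp2j3 (r = 0.967). Pnpt1 and Ythdf1 were nearest to Vegfc (r = 0.982 and 0.972), Hlx and Arl6ip4 to Vegfb (0.945 and 0.935), and Cacng6 and Sox15 to Angpt1 (0.956 and 0.938). Among the members themselves, Vegfd correlated with Mdk at 0.977 and with Ptn at 0.962, and with Nrp1 at -0.922, over the same 9 arrays.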

How the data were processed

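Gene expression was measured on 9 single-colour Affymetrix arrays of rat lung fibroblasts, 3 per day. The authors deposited intensity values, summarised per probe set by RMA with affy, per the submitters' processing notes, which name no version. RMA's background step and probe summary can shrink changes of dim probe sets. The deposited values are linear, so log2 was taken here. Of 31099 probe sets, 57 AFFX controls were left out. By GEO's platform annotation, 20826 of the others had 1 gene symbol, 436 several and 9780 none, and each of 14217 genes was represented by its brightest probe set. A mean per day was fitted over the 9 arrays with limma 3.58.1 in R 4.3.3 (6 residual degrees of freedom, 5.69 added by eBayes). Tests were two-sided, with Benjamini-Hochberg adjustment over all probe sets of a comparison, and errors are SEs unless SD is named. P-values measure the spread between litters, and the number of arrays limits precision. The pair test used Python 3.11.15 and scipy 1.17.1, adjusted over 4 pairs. The procedure was tested on simulated data.

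Members and the 13 gene lists (138 of 151 genes measured) were chosen with earlier results of these data known. The text names each member, the receptors of VEGF and angiopoietins, up to 4 called genes of a list with the largest change, and for each member the 2 genes most like it. Hif1a, Alk, Ncl, the collagens and any other list gene outside this rule were chosen after their values were seen. Promoter letters are from RefSeq, build GRCr8, and no genome was used. Alternatives were a quantile normalization, median centring, a filter on dim probe sets, the mean of a gene's probe sets, fits to the days compared, a trended and robust eBayes, litter number as a block, and leaving out each array.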

Additional observations from a re-analysis of the deposited data

How the results depend on the processing

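Over 7 other settings and 9 omissions of a single array, no called change of a member turned direction. Of 480 recomputed member changes, 457 kept their side of the threshold and 23 lost their call, and those are named with the genes above. The number of members called, 4 for day 7 against day 2, ranged from 2 to 4 with 1 array left out (2 without any single day 2 array or without day 7 replicate 1), against 6 to 7 (7 with all arrays) for day 21 against day 7 and 6 to 8 (8 with all arrays) for day 21 against day 2. The adjusted p of the paired differences ranged from 0.0143 to 0.0333 for Angpt1 minus Angpt2 and for Nrp1 minus Nrp2, from 0.0143 to 0.050 for Mdk minus Ptn and from 0.0214 to 0.0679 for Vegfa minus Vegfc with 1 array left out, and was 0.15 for the last with the mean of all probe sets of a gene. Each omission leaves fewer arrays, and the cause of a lost call was otherwise not tested. Deviations from the day means correlated at -0.24 to 0.41 over 9 same-numbered pairs of arrays, 2 of them above 0.1. Between days 2 and 7 the same-numbered pairs gave 0.41, 0.08 and 0.22, against -0.28 to 0.06 for unlike-numbered pairs. Same-numbered pairs with a day 21 array gave -0.24 to 0.05. The labels do not say that a number is the same litter on all days, and litter numbers were not taken to pair samples. With litter number as a replicate block, 4, 7 and 8 members were called in these comparisons, as without it, and the block changed no call of a member. Under the block, 1 and 5 VEGF and angiopoietin receptors were called at day 7 and at day 21 against day 2, in place of 0 and 3, and 1 neuropilin partner at day 7 against day 2 and 3 at day 21 against day 7, in place of 0 and 1. Of 1648 recomputed changes of list genes, 110 lost their call, and of 624 list counts 35 fell and 40 rose by more than the margin of 1.5 times. Low signal limits Nrp2's second probe set and the day 21 values of Ptprz1, Gpc2, Sema3g, Emcn and Tmem100. The day 21 values of Vegfd were above the low end but near it, so background may also bound the size of its falls.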

Other observations

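Other secreted factors that act on vessels were read on the same arrays. Of 10 measured angiogenic factors that are not members, 1 rose at day 7 against day 2, when 11.4% of all genes were called, and 1 rose and 4 fell at day 21 against day 7, when 38.1% were. Angptl4, an angiopoietin-like inhibitor of lipoprotein lipase, averaged log2 10.38, 10.52 and 8.92 on days 2, 7 and 21 and was 3.03-fold lower at day 21 than at day 7 (log2 change -1.60 ± 0.18, limma adjusted p = 4.04e-05). Cxcl12, a chemokine of mesenchymal cells, averaged 8.84, 9.66 and 8.32 and was 2.53-fold lower (adjusted p = 0.000229). Its rise of 0.82 at day 7 against day 2 (adjusted p = 0.0221) was lost with arrays centred on their median and without any single one of 4 arrays, day 2 replicates 1 and 3 and day 7 replicates 1 and 2 (adjusted p = 0.0534 to 0.0871 without an array). Ccn2, a matricellular growth factor, was highest on day 21, at 11.39, 11.76 and 12.51, and was 2.18-fold higher at day 21 than at day 2 (adjusted p = 0.000381).

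Of 8 measured inhibitors of angiogenesis, 2 rose and 2 fell at day 21 against day 7, against 13.7% and 24.4% of all genes. With arrays centred on their median 2 rose and 0 fell, since Thbs2 and Vash1 were no longer called (limma adjusted p = 0.0745 and 0.0719). Serpinf1, which encodes pigment epithelium-derived factor, averaged log2 8.26, 7.32 and 9.65 on days 2, 7 and 21 and was 5.03-fold higher at day 21 than at day 7 (log2 change 2.33 ± 0.25, adjusted p = 3.11e-05). Cxcl10, an interferon-induced chemokine, averaged 8.16, 7.78 and 9.87 and was 4.24-fold higher (adjusted p = 2.72e-06). Macrophage markers also rose in that comparison, 15 of 15 measured, and their part in these values was not tested. Thbs2, a thrombospondin, averaged 8.23, 7.87 and 7.14 and was 2.13-fold lower at day 21 than at day 2 (adjusted p = 0.00656).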
